A study of Homo sapiens with 2 samples.

Results

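The BCL2 family of apoptosis regulators was followed in REH, an established human leukaemia line of B-cell precursors whose label here is REH-R. Its 10 members were the features whose Entrez number maps to BCL2, BCL2L1, MCL1, BCL2A1, BCL2L11, BMF, BBC3, PMAIP1, BAX and BAK1. All 10 were found among 25702 features, and 9 reached 10 counts when both libraries were added. One culture carried a tetracycline-regulated cassette of PAX5 linked through an IRES (a second entry site for ribosomes) to GFP, a fluorescent protein, so that GFP marked the cells that made the introduced factor. The control culture carried the same kind of cassette with IRES and GFP but no PAX5. Doxycycline (1 µg/mL, 3 days) was given to both, and both were sorted for GFP, so doxycycline, GFP and sorting were common to both. Total RNA gave 1 library per group, and there is no replicate check, no p-value and no standard error for any difference below.

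Apoptosis through mitochondria is decided by binding among the proteins of this family. Guardians (BCL2, BCL-XL from BCL2L1, MCL1 and BFL1 from BCL2A1) hold the others in check. BH3-only proteins (BIM from BCL2L11, BMF, PUMA from BBC3 and NOXA from PMAIP1) neutralise guardians, and the effectors BAX and BAK1 open the outer mitochondrial membrane to release cytochrome c. In developing B cells, BIM removes cells that lack survival signals or react with self, MCL1 is required for survival at several stages, and B-precursor leukaemias differ in which guardian they lean on.

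The libraries held 11944765 counts (PAX5) and 10997864 counts (control). PAX5 itself had 8319 against 2660 counts, 2.91-fold (2.78 to 3.04), so the control cells also held PAX5 transcript. Of 12 markers of B-cell precursors 11 had at least 100 counts in both libraries; the other, VPREB1, had 17 and 7. The 3 markers each of mature B cells, of natural killer cells and of erythroid and megakaryocytic cells were at 0 in both libraries, and 5 T-cell markers summed to 0 and 1 counts. Of 5 myeloid markers, ITGAM had 222 and 278 counts and CSF1R had 14 and 41, while CD14, LYZ and FCGR1A had at most 1 and 3. In a library from bulk cells, a smaller number of cells with a transcript and less of it per cell cannot be told apart.

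The transcript of BCL2 was lower (0.658-fold) and that of BMF higher (1.89-fold) in the PAX5 library. Levels of the 10 members, summed as guardians, BH3-only genes and effectors, differed little. Ratios are scaled counts of the PAX5 library over the control library, and each has an exact 95% interval that covers counting error only. A member counted as past the rule of size when the interval bound nearest to 1-fold lay at or beyond 2-fold. No member passed it in either direction, and of all 13532 features with at least 10 counts, 1.34% passed as higher and 0.0517% as lower. Of the 9 measured members, 4 had intervals above equal levels (BCL2L1, BCL2L11, BMF, BAK1), 1 had an interval below (BCL2) and 4 had intervals that covered equality (MCL1, BBC3, PMAIP1, BAX). If cultures are assumed to vary by a coefficient of 0.1, the 4 above become 1 (BMF), and at 0.2 the 1 below becomes 0. No share over all features was computed under that assumption. Without it, across all features with at least 10 counts the share above was 18.7% and the share below 16.8%. Since each of the 9 had more than 100 counts, the closer background is that of the 10672 features with at least 100, 21.2% above and 20% below. Several members lay far above 100 counts, up to 8264 for BCL2, where intervals are narrower. No such share at the members' own depth was computed. The median log2 ratio of the 9 was 0.03, beside -0.01 over all features.

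**Figure D1:**
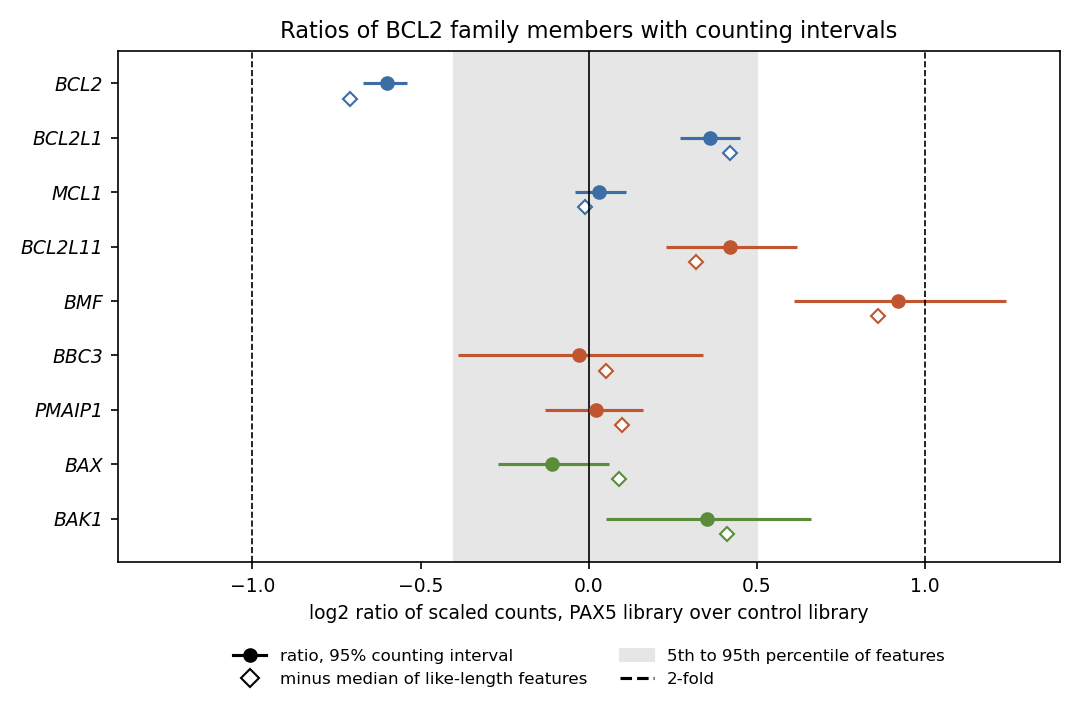
Log2 ratios of the 9 measured members (x axis, PAX5 library over control library), with exact 95% counting intervals as lines and colours for the roles (blue guardians, orange BH3-only, green effectors). Open diamonds give the ratio minus the median of features of like length, the grey band spans the 5th to the 95th percentile of features with at least 100 counts (-0.40 to 0.50), and dashed lines mark 2-fold; BCL2 at -0.60 and BMF at 0.92 lie outside the band.

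The sequences before the starts of 3 genes are shown because BCL2 and BMF had the lowest and highest ratios of the members and BCL2L11 encodes the BH3-only protein best known in B-cell development. They are the 250 bases before the RefSeq start on GRCh38.p14, the gene's own strand, 5′ to 3′. Capitals mark GCGTGAC, a core of known PAX5 sites, and GTAAACA, the core bound by FOXO factors, on either strand. GGGCGG, the GC box bound by SP1, was searched as well and is not marked.
BMF, chr15:40108880-40109129, minus strand: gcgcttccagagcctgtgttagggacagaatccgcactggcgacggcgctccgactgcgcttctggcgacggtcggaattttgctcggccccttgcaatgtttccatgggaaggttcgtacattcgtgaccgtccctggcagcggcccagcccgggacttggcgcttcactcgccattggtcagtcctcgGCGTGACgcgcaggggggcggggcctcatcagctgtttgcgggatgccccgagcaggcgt
BCL2, chr18:63319770-63320019, minus strand: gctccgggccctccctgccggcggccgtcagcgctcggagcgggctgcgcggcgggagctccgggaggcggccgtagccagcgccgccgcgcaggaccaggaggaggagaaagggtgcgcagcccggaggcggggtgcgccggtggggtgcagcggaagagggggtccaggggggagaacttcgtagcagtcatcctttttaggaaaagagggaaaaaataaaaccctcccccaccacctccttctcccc
BCL2L11, chr2:111120664-111120913, plus strand: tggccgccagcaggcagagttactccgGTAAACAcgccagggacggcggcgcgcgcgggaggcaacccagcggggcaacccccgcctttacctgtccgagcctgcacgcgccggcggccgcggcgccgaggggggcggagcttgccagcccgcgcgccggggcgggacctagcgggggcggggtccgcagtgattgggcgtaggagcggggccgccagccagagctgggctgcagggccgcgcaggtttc
The first BMF window held the PAX5 core once, starting at position -60 from the gene start, and the window of the other RefSeq start of BMF had none. The BCL2L11 window held the FOXO core once, starting at position -223, and the BCL2 window held neither. Among the 11 windows listed for 9 members, 1 had the PAX5 core and 1 the FOXO core. Over all 35116 windows of the same length, 2.2% held the PAX5 core and 2.98% the FOXO core. The GC box was in 5 of the 11 windows and in 42.6% of all. These are matches of letters only, and binding was not measured.

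Among the guardians, BCL2 had 3425 counts in the PAX5 library against 4839 in the control library. Its CPM (counts per 1000000 of the scaled library) was 288.1 against 438.0, and the control library was 1.52-fold higher (1.45 to 1.59), a log2 ratio of -0.60. BCL2 is the founding guardian and the target of venetoclax. Of 1122 features with 0.5 to 2 times its counts, 0.357% had a ratio as low or lower. Of 1067 features of like length, 5188 to 6736 bases, 1.03% did.

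BCL2L1, whose main product is the guardian BCL-XL, had 2322 counts in the PAX5 library against 1678 in the control library. The CPM values were 195.3 and 151.9, so that the PAX5 library was 1.29-fold higher (1.21 to 1.37), with a log2 ratio of 0.36. BCL2 and BCL2L1 thus lay on opposite sides of equality. Of 2526 features with 0.5 to 2 times its counts, 6.73% had a ratio as high or higher, so a value of this size was not rare. Counts per gene do not separate BCL-XL from the short, death-promoting splice form of the gene. RefSeq also lists an antisense gene at BCL2L1, whose reads cannot be told apart without a known strand setting.

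MCL1, a guardian protein with a short lifetime, had 2883 and 2618 counts. Its CPM was 242.5 in the PAX5 library against 236.9 in the control library, 1.02-fold (0.97 to 1.08). The interval leaves room for a difference of 1.08-fold at most in either direction, from counting error alone. BCL2A1, a guardian driven by NF-kB in mature B cells, had 0 counts in the PAX5 library against 4 in the control library (0.362 CPM). With 0 counts a level of up to 0.252 CPM remains possible, and no ratio is given because the gene did not reach 10 counts.

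The BH3-only member with the highest ratio was BMF, whose protein is held by dynein light chain in resting cells. It had 265 counts in the PAX5 library against 130 in the control library, 22.3 against 11.8 CPM. The ratio was 1.89-fold (1.53 to 2.36), 0.92 on the log2 scale (0.61 to 1.24). The interval spans 2-fold, and the lower bound kept BMF from passing the rule. Of 3567 features with 0.5 to 2 times its counts, 2.3% had a ratio as high or higher, and of 1066 features of like length 1.69% did.

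BCL2L11, which encodes BIM, a binder of all the guardians, had 527 counts against 365. The CPM values were 44.3 in the PAX5 library against 33 in the control library, 1.34-fold (1.17 to 1.54). Of 4531 features of similar depth, 5.39% had a ratio as high or higher. BIM is made in several splice forms, which counts per gene do not separate.

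BBC3 and PMAIP1 were nearly level between the libraries. BBC3, which encodes PUMA, had 132 and 125 counts, 11.1 CPM in the PAX5 library against 11.3 in the control library, and a log2 ratio of -0.03 (-0.39 to 0.34). With so few counts, a difference in BBC3 of up to 1.31-fold lay within counting error. PMAIP1, which encodes NOXA, the selective partner of MCL1 and BFL1, had 813 and 747 counts, 68.4 and 67.6 CPM, and a log2 ratio of 0.02 (-0.13 to 0.16).

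The effectors differed from each other in level more than between the libraries. BAX had 609 counts in each library, and because the PAX5 library is deeper its CPM was 51.2 against 55.1, a log2 ratio of -0.11 (-0.27 to 0.06). BAK1 had 209 counts in the PAX5 library against 152 in the control library, 17.6 and 13.8 CPM, 1.28-fold (1.03 to 1.59). Of 3458 features of similar depth to BAK1, 10.8% had a ratio as high or higher.

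**Figure D2:**
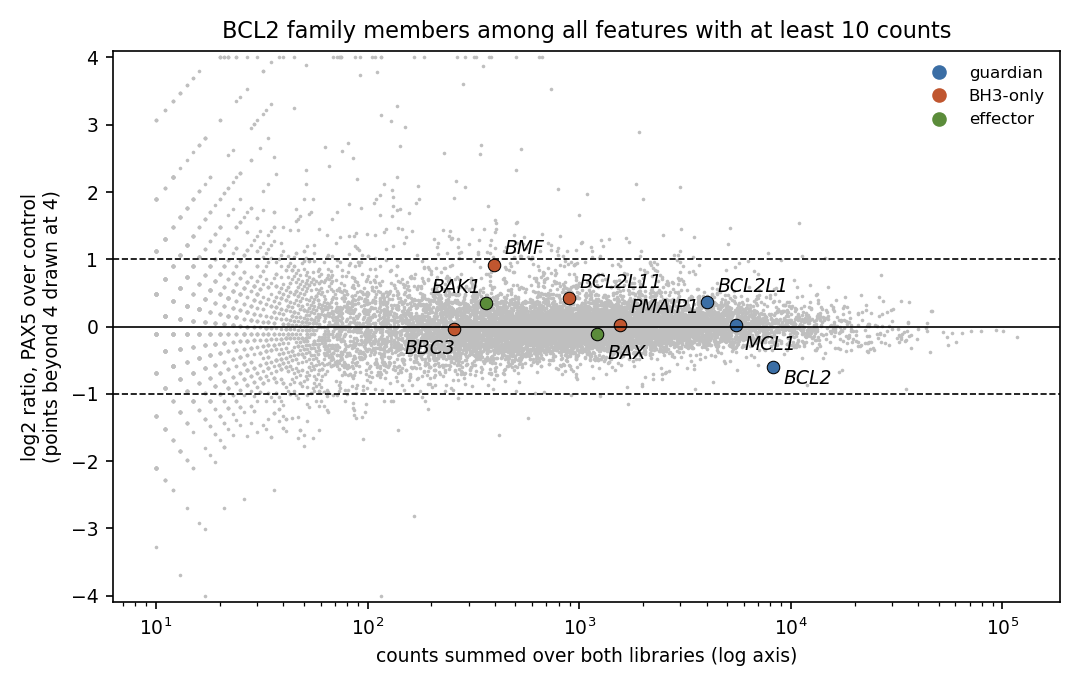
Log2 ratio (y axis, PAX5 over control) against counts summed over both libraries (x axis, log scale) for features with at least 10 counts and at least 1 in each library (grey), with the 9 measured members coloured by role. The dashed lines mark 2-fold; BMF at 395 counts lies just under the upper line and BCL2 at 8264 counts lies at the lower edge of the features of its depth.

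Short genes tended to lower ratios in the PAX5 library than long genes, which bears on a family whose members run from 943 bases (BCL2A1) to 6620 bases (BCL2). When features with at least 100 counts were split by length into 10 groups of equal size, the median log2 ratio was -0.20 in the shortest group and 0.19 in the longest. Relative to the median of its own length group, BCL2 stood at -0.71 (-0.77 to -0.64), BMF at 0.86 (0.55 to 1.17), BCL2L1 at 0.42 (0.33 to 0.51), BAK1 at 0.41 (0.10 to 0.72) and BCL2L11 at 0.32 (0.13 to 0.52). These 5 kept their sides of equality. BAX, the second shortest member at 1256 bases, went from -0.11 to 0.09 (-0.07 to 0.26), and both intervals covered equality. MCL1 at -0.01, BBC3 at 0.05 and PMAIP1 at 0.10 also had intervals that covered it.

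Levels of different genes were compared as counts per kilobase of the deposited gene length per 1000000 scaled counts, with exact 95% counting intervals. In the control library BCL2 was the most abundant member at 66.2, followed by BCL2L1 at 59.3 and MCL1 at 59.2, whose intervals overlapped. BAX stood at 43.9 and PMAIP1 at 34.9. BAK1 (6.27), BCL2L11 (6.21) and BBC3 (5.4) formed a lower tier in which each overlapped the next, BMF lay below them at 2.47 and BCL2A1 at 0.384.

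In the PAX5 library BCL2L1 was the most abundant at 76.3, MCL1 was next at 60.6 and BCL2 followed at 43.5. The interval of BCL2 (42.1 to 45) overlapped that of BAX (40.8), and BAX overlapped PMAIP1 (35.3). BCL2L11 (8.33) and BAK1 (8.02) overlapped, as did BBC3 (5.3) and BMF (4.67), and BCL2A1 was at 0. BCL2 thus ranked above BCL2L1 and MCL1 in the control library and below them in the PAX5 library, and BMF reached the level of BBC3 within counting error. Among features with at least 10 counts, 7.07% had a level at or above that of BCL2L1 in the PAX5 library, and 65.6% at or above that of BMF. These levels rest on 1 length per gene, and a shorter or longer form in these cells would shift them.

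**Figure D3:**
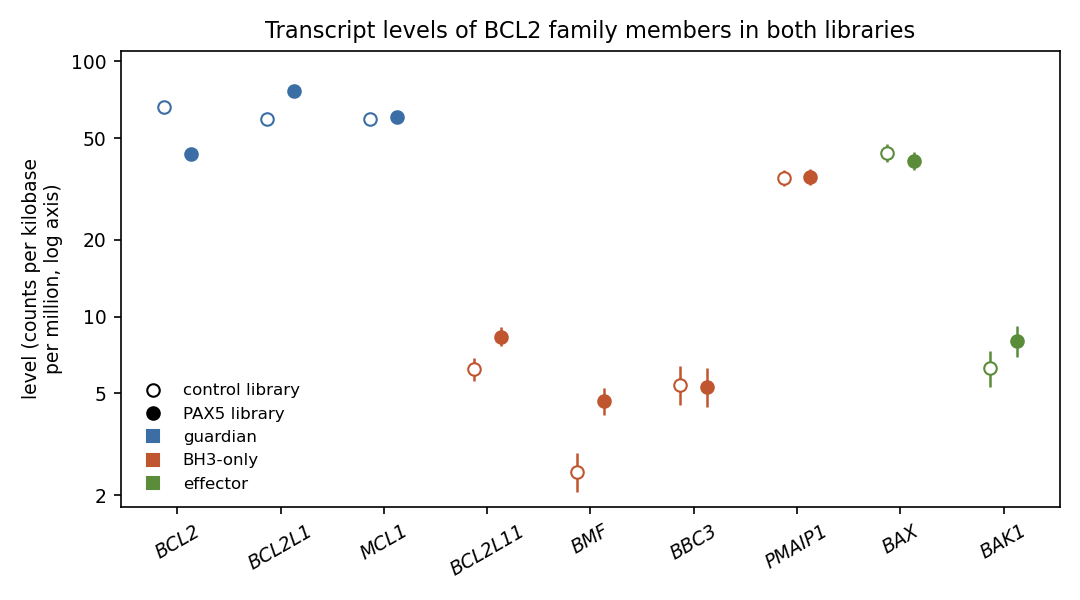
Levels of the 9 measured members (y axis, counts per kilobase per 1000000, log scale) in the control library (open circles) and the PAX5 library (filled circles), with exact 95% counting intervals as lines. BCL2 is at 66.2 and 43.5 and BMF at 2.47 and 4.67, and the 2 points of MCL1, BBC3 and PMAIP1 nearly coincide.

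Summed over the members of a role, levels were close between the libraries. The 4 guardians summed to 180.5 in the PAX5 library against 185.1 in the control library, a ratio of 0.975. The 4 BH3-only members summed to 53.6 and 49, a ratio of 1.09, and the 2 effectors to 48.8 and 50.2, a ratio of 0.973. BID, BAD and HRK, given below, are not members and are outside these sums. BID (log2 ratio -0.46) and BAD (-0.34) were lower in the PAX5 library and HRK (1.12) was higher. No BH3-only sum that includes them was computed, so the direction of 1.09 holds for the 4 members only. What differed was the make-up of the guardian sum. BCL2 made up 24.1% of it in the PAX5 library against 35.7% in the control library. BCL2L1 made up 42.3% and 32.1%, and MCL1 33.6% and 32.0%. PMAIP1 dominated the sum of the 4 BH3-only members with 65.9% and 71.3%. In that sum BMF had 8.7% and 5.0% and BCL2L11 15.5% and 12.7%. BAX made up 83.6% of the effector sum in the PAX5 library against 87.5% in the control library. Without division by length, the guardian sum had a log2 ratio of -0.19 and the BH3-only sum of 0.24, because the long BCL2, BCL2L11 and BMF genes then weigh more.

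**Figure D4:**
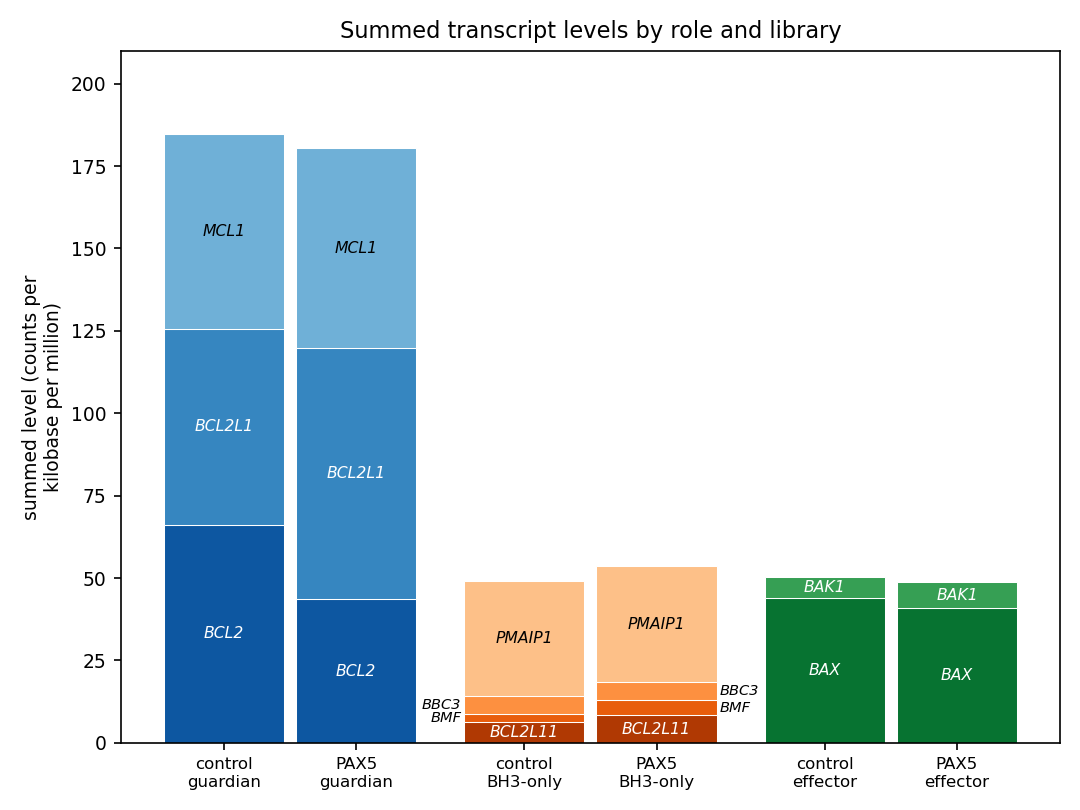
Summed levels (y axis, counts per kilobase per 1000000) of the members in each library, as guardians, BH3-only genes and effectors, with 1 stacked segment per gene and no error drawn. The guardian bars reach 185.1 (control) and 180.5 (PAX5) with a smaller BCL2 and a larger BCL2L1 segment in the PAX5 library; BCL2A1 is too small to see.

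Ratios between 2 members within a library do not depend on how libraries are scaled, but those given here were not adjusted for the length trend. The level of BCL2L1 over BCL2 was 1.75 in the PAX5 library against 0.897 in the control library, a 1.96-fold difference (exact 95% counting interval 1.81 to 2.11). MCL1 over BCL2 was 1.39 against 0.895, 1.56-fold (1.45 to 1.67). For the BH3-only genes, BMF over BCL2 was 0.107 against 0.0373, 2.88-fold (2.31 to 3.6). BCL2L11 over BCL2 was 0.192 against 0.0939, 2.04-fold (1.77 to 2.35). BMF over BBC3 was 0.882 against 0.457, 1.93-fold (1.38 to 2.7), and BMF over BCL2L11 differed by 1.41-fold (1.09 to 1.83). Among the effectors, BAK1 over BAX was 0.197 against 0.143, 1.37-fold (1.08 to 1.76). The median log2 ratio of the length group was -0.06 for BAK1 and -0.20 for BAX. Relative to those medians, the intervals of BAK1 (0.10 to 0.72) and BAX (-0.07 to 0.26) overlapped. Overlap of 2 single intervals does not judge the pair, and no length-adjusted interval of the pair was computed. BAX (1256 bases) lies at the upper end of its group (85 to 1263 bases), and the next group had a median of -0.12. For BCL2L1 and BCL2 the medians of the length groups were -0.06 and 0.10, which lie the other way from those of BAK1 and BAX. These pairs were chosen after the members' values were seen.

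The other BCL2 family genes also went both ways, and none passed the rule. Of 13 listed, 9 had at least 10 counts, 4 with intervals above equality and 3 below, and the median log2 ratio was 0.11. The shares were 18.7% and 16.8% of all features with at least 10 counts. Among features with at least 100 counts, which most of the 9 had, they were 21.2% and 20%. HRK, a BH3-only gene best known from neurons, had 35 counts against 15, a log2 ratio of 1.12 with a wide interval of 0.21 to 2.10. BID, which is cleaved by caspase-8 to join death receptors to mitochondria, had 531 against 681 counts and -0.46 (-0.63 to -0.30). BAD, a BH3-only gene controlled by phosphorylation, had 285 against 336 counts and -0.34 (-0.58 to -0.11). Relative to features of like length, BAD stood at -0.14 (-0.38 to 0.09), an interval that covers equality. BNIP3, a mitophagy receptor induced by hypoxia, had 2112 against 1696 counts and 0.21 (0.12 to 0.30). BNIP3 has many pseudogene copies and overlaps PPP2R2D, and BAD overlaps GPR137, so their reads are uncertain. BCL2L10, BCL2L14, BCL2L15 and BOK had at most 1 count in each library.

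Downstream of the mitochondria, 21 genes of the apoptosome, the caspases and their inhibitors were all measured. None passed the rule, 3 had intervals above equality and 5 below, and the median was -0.09. The shares were 18.7% and 16.8% of all features with at least 10 counts. Among features with at least 100 counts, which most of the 21 had, they were 21.2% and 20%. Relative to features of like length, 5 were above and 4 below, and with total counts 2 were above and 5 below. For these alternative counts, and for those of the lists below, no share over all features was computed. APAF1, the scaffold of the apoptosome, had 817 against 471 counts which is 0.69 on the log2 scale (0.52 to 0.86), and 0.49 (0.33 to 0.66) relative to features of like length. CYCS, which encodes cytochrome c and has many pseudogene copies, had 1524 against 1670 counts and -0.24 (-0.34 to -0.14). BIRC5, which encodes the mitotic protein survivin, had 937 against 1023 counts and -0.23 (-0.36 to -0.10).

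Of 7 mitochondrial outer membrane partners, all measured, 2 had intervals above equality and 3 below, beside 21.2% and 20% of features with at least 100 counts, with a median of -0.12 and none past the rule. All 7 lay far above 100 counts, where intervals are narrower, and no share at their own depth was computed. Relative to features of like length, 2 were above and 1 below, and with upper-quartile factors 1 was above and 4 below. The import channel gene TOMM40 stood at -0.30 (-0.45 to -0.15) with 668 against 763 counts, and the pore gene VDAC3 had 1625 against 1748 and -0.21 (-0.31 to -0.11). Relative to features of like length, TOMM40 stood at -0.22 (-0.37 to -0.07) and VDAC3 at -0.09 (-0.19 to 0.01), which covers equality. VDAC1, whose pseudogene copies could share its reads, had 0.11 (0.04 to 0.18), and the import receptor gene TOMM20 had 0.07 (0.02 to 0.13). Differences of this size are within the spread of all features.

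Of 18 regulators of BCL2 family transcription and turnover, all measured, 9 had intervals above equality and 5 below, beside 21.2% and 20% of features with at least 100 counts, with a median of 0.08 and none past the rule. Most of them lay far above 100 counts, where intervals are narrower, and no share at their own depth was computed. The assumed variation between cultures was not applied to this list. Relative to features of like length, 5 were above and 3 below. FOXO1, a transcription factor that acts on BH3-only genes and on B-cell development, stood at 0.49 (0.42 to 0.55) with 5043 against 3347 counts. HUWE1, a ubiquitin ligase that marks MCL1 for degradation, had 6376 against 4359 counts and 0.44 (0.39 to 0.50). USP9X, which removes ubiquitin from MCL1, had 4282 against 3165 counts and 0.33 (0.26 to 0.40). MDM2, a ubiquitin ligase, had 6977 against 5272 counts and 0.30 (0.25 to 0.35). Relative to features of like length, FOXO1 stood at 0.38, HUWE1 at 0.25, USP9X at 0.14 and MDM2 at 0.10, each with an interval above equality. HUWE1 (14734 bases) and USP9X (12401 bases) were compared with the longest group, whose median length is 8295 bases. Their length was therefore matched only in part.

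**Figure D5:**
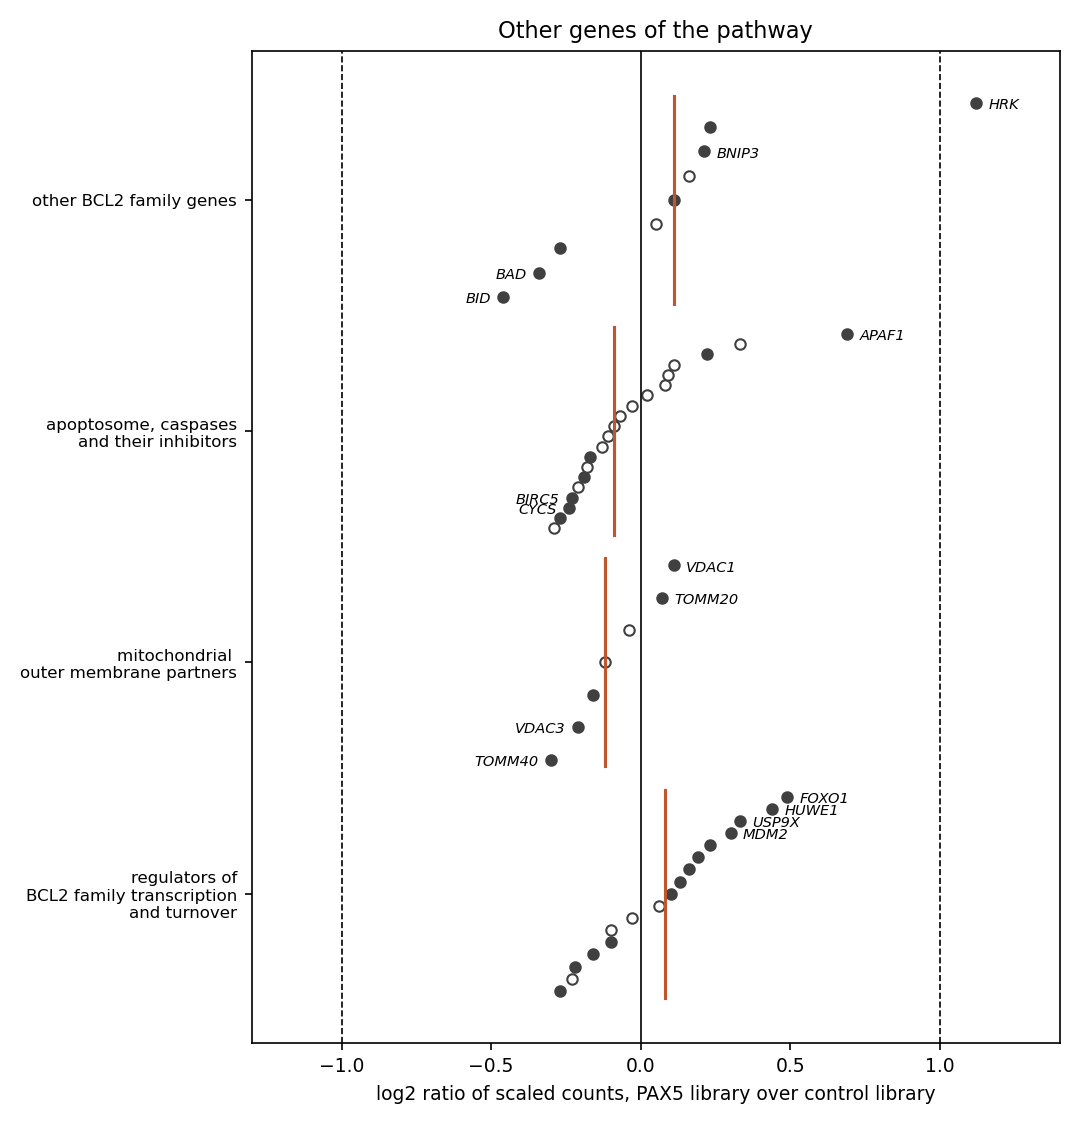
Log2 ratios (x axis, PAX5 library over control library) of measured genes in 4 lists of the wider pathway (2 genes not shown), sorted within each list on the y axis, with filled points where the counting interval excludes equality and open points where it does not. Orange bars mark each list's median (0.11, -0.09, -0.12 and 0.08 from top to bottom), and HRK at 1.12 alone lies beyond the dashed 2-fold lines.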

How the data were processed

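Total RNA of 1 PAX5 and 1 control library was counted per gene. The deposited values are raw counts of reads per Entrez gene, made by the authors with featureCounts. The build was hg19 (GRCh37), per the submitters' processing notes. Details not given in the sources used here include the aligner, whether strand was used and how multi-mapping reads were treated. The files also hold a gene length in bases, deposited by the authors under an unnamed annotation. The series table and the single-library files held the same 51404 values. Symbols, neighbours and promoter sequences came from RefSeq tables of GRCh38.p14 (23696 of 25702 features matched), and MCL1 had no promoter entry.

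TMM scaling (edgeR 4.0.16, R 4.3.3) was computed over features with at least 10 summed counts, with factors of 0.9954 (PAX5) and 1.0046 (control). With 1 library per group no test is possible, so ratios have exact Clopper-Pearson 95% intervals (scipy 1.17.1) conditional on the gene's summed count, levels have exact Poisson intervals, and pairs of genes have exact conditional odds ratio intervals. Amplified reads are not independent molecules, so all intervals, and the floor of 3 counts for a 0, cover counting error only. The calculation was run on simulated Poisson counts, the model that the intervals assume. Those counts held no variation between cultures, amplification or length trend, so the run checks the arithmetic only. The members and lists were chosen with earlier results of these data known. All members are named, and of each other list up to 4 genes with the interval bound farthest from equality and any past the rule; further names were added after their values were seen. The values of 2 listed genes are not reported here, while the list counts and medians include them. Alternatives were scaling by total counts, DESeq2 1.42.0 size factors and upper quartiles, other count minimums and fold bounds, an assumed variation between cultures, and centring on gene length, which for the lists other than the members was added after seeing the data.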

Additional observations from a re-analysis of the deposited data

How the results depend on the processing

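No paired analysis was possible because each group has 1 library and the labels give no replicate numbers, and for the same reason no library could be left out. Under the 3 other scalings the log2 ratios of the 24 genes recomputed singly stayed within their counting intervals. Centring on gene length moved BCL2 to -0.71 and BAX to 0.09, beyond their intervals. Shares over all features were computed only for the main settings, so the counts under alternatives given here have no background beside them. With a bound of 1.5-fold in place of 2-fold, 1 member passed the rule (BMF). With variation between cultures assumed at a coefficient of 0.1 or 0.2, the members with intervals above equality went from 4 to 1 in both cases, which was BMF, and at 0.2 the members below went from 1 to 0. That assumption was applied to the members only, not to the other lists. By point ratio at 2-fold, 1 of the other BCL2 family genes passed (HRK). With upper-quartile factors the counts with intervals above and below went from 9 and 5 to 6 and 6 for regulators, from 3 and 5 to 2 and 5 for apoptosome genes and from 2 and 3 to 1 and 4 for mitochondrial partners. With total counts, 2 apoptosome genes were above and 4 partners below, and with DESeq2 size factors 4 apoptosome genes were below. Centring the lists on gene length, added after seeing the data, gave 5 and 4 for apoptosome genes, 2 and 1 for partners, 5 and 3 for regulators and 4 and 2 for the other BCL2 family genes. Without division by length the sums over the members had log2 ratios of -0.19 (guardians) and 0.24 (BH3-only), against -0.04 and 0.13. Depth limits BBC3, BAK1 and BMF most, and BCL2A1 could not be judged. Variation between cultures was not measured.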
